A study of Mus musculus with 11 samples.

Results

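The luminal and basal keratins examined here are 8 of the 26283 genes in the deposited tables, taken by their symbols: *Krt7*, *Krt8*, *Krt18* and *Krt19* as luminal keratins and *Krt5*, *Krt14*, *Krt15* and *Krt17* as basal keratins. Keratins are intermediate filament proteins of epithelial cells, and each filament pairs type I chains, here *Krt14*, *Krt15*, *Krt17*, *Krt18* and *Krt19*, with type II chains, here *Krt5*, *Krt7* and *Krt8*. In the mammary gland, *Krt8* and *Krt18* form the filaments of the luminal cells that line ducts and produce milk, whereas *Krt5* and *Krt14* form those of the outer, contractile layer of basal myoepithelial cells. Both sets serve as lineage markers in mammary tumors, and *Krt17* is also induced in stressed or wounded epithelia.

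Each library came from poly(A) RNA of a whole, flash-frozen mammary tumor of an 18-week-old C57BL/6 mouse. The animals of both genotypes carried MMTV-PyMT, the viral oncogene that starts the tumors, and MMTV-Cre. The 6 PyMT *Pcbp1*–/– tumors came from animals with floxed alleles, *Pcbp1*(fl/fl), and the 5 PyMT *Pcbp1*+/+ tumors from animals with *Pcbp1*(wt/wt) alleles, in which Cre has no floxed target at this gene. The MMTV promoter is meant to drive the oncogene and Cre in mammary epithelium, Cre activity in other cells was not tested here, and only females develop tumors. The labels place all tumors in 1 batch and do not say which share an animal, so p-values measure the spread between these samples.

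The deposited estimated counts summed to between 11239900 and 14092200 per tumor in PyMT *Pcbp1*–/– and between 10543200 and 11411800 in PyMT *Pcbp1*+/+. Genes that are not protein-coding held between 38.6% (PyMT *Pcbp1*+/+ replicate 1) and 48.3% (PyMT *Pcbp1*+/+ replicate 3) of these counts. All counts enter the CPM total, so CPM also depend on this share. Values are given as CPM, counts per 1e6 counts of the tumor, and 3 counts, the limit that a count of 0 allows, corresponded to between 0.213 and 0.285 CPM, which covers counting error only. *Pcbp1* (ENSMUSG00000051695.6), the targeted gene, had a lowest value of 15.4, a median of 20.9 and a highest value of 33.6 CPM in the 6 PyMT *Pcbp1*–/– tumors. It had 268, 271, 225, 220 and 259 CPM in tumors 1 to 5 of PyMT *Pcbp1*+/+, numbered as the replicates of the labels. The groups were far apart, as the labels state, with a log2 fold change of -3.43 (standard error, SE, 0.19) and an adjusted p of 4.72e-06 in edgeR's quasi-likelihood test.

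None of the 8 keratins passed the test between the genotypes. At an adjusted p under 0.05 over the 19232 genes that passed the filter on low counts, which all 8 did, 0 of 8 were called by edgeR, beside 2.27% of all genes tested. DESeq2 called 0 of the 7 for which it gave an adjusted p, all but *Krt5*, and limma-voom called 0 of 8, beside 6.32% and 11.2% of all genes. The DESeq2 share is over all 19232 genes, those without an adjusted p included. In edgeR 1 of 8, *Krt14*, had an unadjusted p under 0.05, beside 18.7% of all genes. The CPM values of the genotypes overlapped for each of the 8, whereas they did not overlap for 3.29% of all genes tested. The basal keratins varied far more from tumor to tumor than the luminal keratins: the highest CPM was 2.05 (*Krt8*) to 7.01 (*Krt19*) times the lowest for the luminal set and 25.0 (*Krt17*) to 72.3 (*Krt14*) times the lowest for the basal set. In RNA from a whole tumor, fewer cells of a type and less RNA per cell cannot be told apart.

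**Figure D1:**
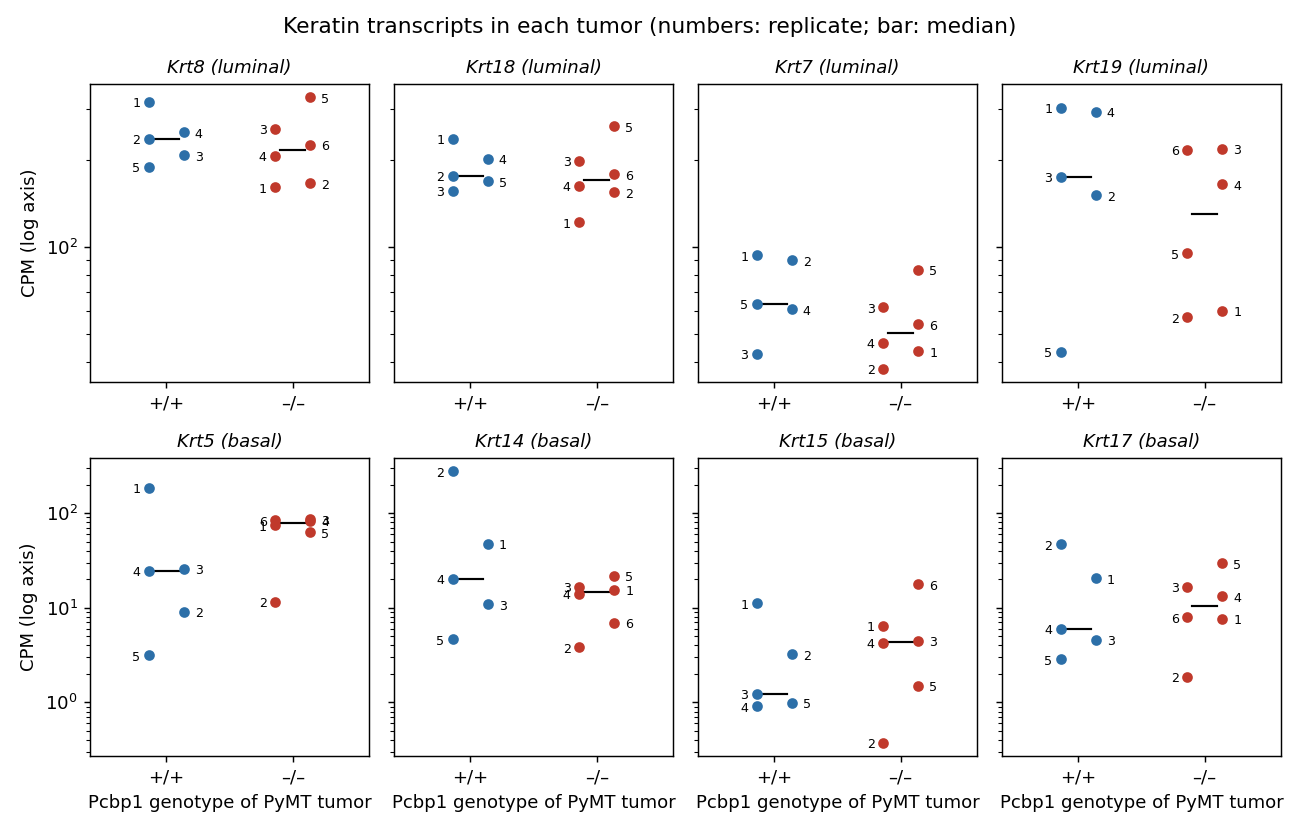
CPM of each keratin on a log axis (shared within a row) in the 5 PyMT *Pcbp1*+/+ tumors (blue) and the 6 PyMT *Pcbp1*–/– tumors (red), with replicate numbers and a bar at each median. The genotypes overlap in every panel, *Krt14* reaches 277 CPM in PyMT *Pcbp1*+/+ replicate 2, and *Krt5* lies between 62.5 and 85.8 CPM in 5 of the 6 PyMT *Pcbp1*–/– tumors.

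To compare levels between the keratins, CPM were divided by the length in kilobases of the canonical transcript in the GENCODE annotation of GRCm39. The medians over the 11 tumors were 123 CPM per kb for *Krt18*, 115 for *Krt8*, 105 for *Krt19*, 28.3 for *Krt5*, 14.9 for *Krt7*, 8.57 for *Krt14*, 4.71 for *Krt17* and 1.90 for *Krt15*. Per length, *Krt18* exceeded *Krt8* and *Krt19* exceeded *Krt5* in 11 of 11 tumors, while *Krt8* exceeded *Krt19* in 6, *Krt5* exceeded *Krt7* in 7, *Krt7* exceeded *Krt14* in 9, *Krt14* exceeded *Krt17* in 7 and *Krt17* exceeded *Krt15* in 10. The place of *Krt8* in this order is uncertain, since it shares sequence with a pseudogene, *Krt8-ps*, that has even more counts. With the counts of *Krt8-ps* given to *Krt8*, an alternative chosen after the values were seen, the median of *Krt8* was 252 CPM per kb, and *Krt8* exceeded *Krt18* and *Krt19* in 11 of 11 tumors.

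*Krt8* (ENSMUSG00000049382.10, minus strand of chr15:101996698-102004482 of GRCm38) is the type II keratin of simple epithelia. Its lowest, median and highest values were 161, 216 and 330 CPM in PyMT *Pcbp1*–/– tumors. Among tumors 1 to 5 of PyMT *Pcbp1*+/+, *Krt8* had 319, 237, 208, 249 and 189 CPM. The ranges nearly coincided, and the log2 fold change was -0.08 (SE 0.18, edgeR adjusted p = 0.843), with a 95% interval from -0.48 to 0.32. This interval leaves room for ratios between 0.715 and 1.24.

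*Krt18* (ENSMUSG00000023043.7, plus strand of chr15:102028180-102032027), the type I partner of *Krt8*, is annotated beside it, away from the type I cluster that holds the other type I genes examined here. Its lowest, median and highest values were 122, 171 and 262 CPM in PyMT *Pcbp1*–/– tumors, and it had 237, 176, 157, 202 and 169 CPM in tumors 1 to 5 of PyMT *Pcbp1*+/+. *Krt18* was lowest in PyMT *Pcbp1*–/– replicate 1 and highest in PyMT *Pcbp1*–/– replicate 5, the same tumors as for *Krt8*. The log2 fold change was -0.05 (SE 0.17, edgeR adjusted p = 0.895), with a 95% interval from -0.42 to 0.31.

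*Krt7* (ENSMUSG00000023039.17, plus strand of chr15:101411043-101430313), a type II keratin of ductal and glandular epithelium, had a lowest value of 37.9, a median of 50.4 and a highest value of 83.3 CPM in PyMT *Pcbp1*–/– tumors. It had 93.7, 89.9, 42.8, 60.9 and 63.7 CPM in tumors 1 to 5 of PyMT *Pcbp1*+/+. Only the top 2 values of PyMT *Pcbp1*+/+ lay above the PyMT *Pcbp1*–/– range, and the log2 fold change of -0.35 did not pass the test (SE 0.22, edgeR adjusted p = 0.428).

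*Krt19* (ENSMUSG00000020911.14, minus strand of chr11:100140810-100148665), the smallest type I keratin and one found in luminal cells and in some progenitors, was the most variable of the luminal set, with a highest value 7.01 times the lowest. In PyMT *Pcbp1*–/– tumors its lowest, median and highest values were 57.1, 130 and 219 CPM. Across tumors 1 to 5 of PyMT *Pcbp1*+/+ it had 304, 151, 175, 294 and 43.4 CPM. Tumors of both genotypes were low, among them PyMT *Pcbp1*+/+ replicate 5 and PyMT *Pcbp1*–/– replicates 1 and 2, and the log2 fold change was -0.47 (SE 0.47, edgeR adjusted p = 0.623).

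*Krt5* (ENSMUSG00000061527.7, minus strand of chr15:101707070-101712898), the type II keratin of basal cells, had 73.9, 11.6, 85.8, 82.6, 62.5 and 84.2 CPM in tumors 1 to 6 of PyMT *Pcbp1*–/–. In tumors 1 to 5 of PyMT *Pcbp1*+/+ it had 184, 9.01, 25.8, 24.5 and 3.13 CPM. The PyMT *Pcbp1*–/– tumors were uniform apart from the low replicate 2, and the PyMT *Pcbp1*+/+ tumors held both the highest value and the 2 lowest values of the series. The medians were 78.3 and 24.5 CPM, while the means of 66.8 ± 28.4 CPM (n = 6, SD) and 49.4 ± 76.1 CPM (n = 5, SD) were closer. The log2 fold change was 0.51 (SE 0.80, edgeR adjusted p = 0.768), with a 95% interval from -1.22 to 2.24. It rested on 1 tumor to a large extent: without PyMT *Pcbp1*+/+ replicate 1 it was 2.08 (edgeR adjusted p = 0.130), and over all 11 tumors left out in turn it lay between 0.21 and 2.08 with adjusted p from 0.130 to 0.901. The tool moved it as well: with all tumors kept it was 1.38 with limma-voom (limma-voom adjusted p = 0.175). It was 1.39 with limma on log2(CPM + 1), 1.48 on log2(CPM + 0.1) and 1.28 with the replicate block, and none of these passed.

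*Krt14* (ENSMUSG00000045545.8, minus strand of chr11:100203162-100207548), the type I partner of *Krt5* in basal cells, had a lowest value of 3.82, a median of 14.8 and a highest value of 21.9 CPM in PyMT *Pcbp1*–/– tumors. Among tumors 1 to 5 of PyMT *Pcbp1*+/+ it had 47.6, 277, 10.9, 20.3 and 4.64 CPM. PyMT *Pcbp1*+/+ replicate 2 stood 5.81 times above the next tumor, and the medians of 14.8 and 20.3 CPM were close. The log2 fold change was -2.42 (SE 0.86, edgeR adjusted p = 0.160). Without PyMT *Pcbp1*+/+ replicate 2 it was -0.60 (edgeR adjusted p = 0.574), and over the alternatives tried it lay between -2.72 and -0.56, with adjusted p from 0.0861 to 0.731.

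*Krt15* (ENSMUSG00000054146.8, minus strand of chr11:100131758-100135928), a type I keratin of basal cells and of hair follicle stem cells, was the least abundant of the 8, with between 5 and 229 counts per tumor. Across tumors 1 to 6 of PyMT *Pcbp1*–/– it had 6.41, 0.375, 4.45, 4.24, 1.49 and 17.7 CPM. In tumors 1 to 5 of PyMT *Pcbp1*+/+ it had 11.1, 3.22, 1.23, 0.911 and 0.982 CPM. A single tumor led each genotype, and the log2 fold change was 0.78 (SE 0.83, edgeR adjusted p = 0.654). Without PyMT *Pcbp1*–/– replicate 6 it was -0.02 (edgeR adjusted p = 0.994), and without PyMT *Pcbp1*+/+ replicate 1 it was 1.85 (edgeR adjusted p = 0.295), the range over each tumor left out.

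*Krt17* (ENSMUSG00000035557.9, minus strand of chr11:100256217-100261029) had 7.60, 1.87, 16.7, 13.2, 29.5 and 7.89 CPM in tumors 1 to 6 of PyMT *Pcbp1*–/–. Among tumors 1 to 5 of PyMT *Pcbp1*+/+ it had 20.4, 46.9, 4.56, 6.01 and 2.86 CPM. As for *Krt14*, PyMT *Pcbp1*+/+ replicate 2 was the highest tumor of all. The log2 fold change was -0.30 (SE 0.72, edgeR adjusted p = 0.862), and without PyMT *Pcbp1*+/+ replicate 2 it was 0.65 (edgeR adjusted p = 0.613). Its sign also turned with all tumors kept, to 0.73 with limma-voom, so the direction depends on the tool and on single tumors.

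The luminal to basal balance of a tumor was taken as the mean log2(CPM + 1) of the 4 luminal keratins minus that of the 4 basal keratins, a score over the members for which no p-value was computed. It was 2.36, 4.48, 3.06, 2.87, 3.16 and 3.02 in tumors 1 to 6 of PyMT *Pcbp1*–/–. Across tumors 1 to 5 of PyMT *Pcbp1*+/+ it was 2.47, 2.50, 3.99, 4.24 and 4.75. Each tumor thus had more luminal than basal keratin RNA on this scale. The means were 3.16 ± 0.71 (n = 6, SD) and 3.59 ± 1.04 (n = 5, SD), and their difference of -0.43 was smaller than the spread within a genotype. The lowest tumor was PyMT *Pcbp1*–/– replicate 1 and the highest PyMT *Pcbp1*+/+ replicate 5. PyMT *Pcbp1*+/+ replicates 1 and 2 were low and replicates 3 to 5 high, whereas 5 of the 6 PyMT *Pcbp1*–/– tumors lay between 2.36 and 3.16 and replicate 2 lay apart at 4.48.

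Summed CPM of the luminal keratins, which *Krt8* leads, ranged from 387 to 770 in PyMT *Pcbp1*–/– and from 465 to 953 in PyMT *Pcbp1*+/+ tumors. Summed CPM of the basal keratins were 103, 17.7, 124, 114, 115 and 117 in tumors 1 to 6 of PyMT *Pcbp1*–/–. They were 264, 336, 42.4, 51.8 and 11.6 in tumors 1 to 5 of PyMT *Pcbp1*+/+. The basal sum therefore ranged 28.9-fold over the tumors and the luminal sum 2.47-fold, so the ratio followed the basal keratins.

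The ratio of the summed luminal to the summed basal CPM was 3.74, 23.5, 5.95, 5.10, 6.68 and 5.79 in tumors 1 to 6 of PyMT *Pcbp1*–/–. It was 3.62, 1.95, 13.7, 15.6 and 40.1 in tumors 1 to 5 of PyMT *Pcbp1*+/+. The basal keratins contributed 4.08% to 21.1% of the CPM of the 8 keratins in PyMT *Pcbp1*–/– tumors and 2.44% to 33.9% in PyMT *Pcbp1*+/+ tumors. The median ratio was 5.87 in PyMT *Pcbp1*–/– and 13.7 in PyMT *Pcbp1*+/+, and the genotypes overlapped. On the log2 scale the mean difference was -0.40, and without PyMT *Pcbp1*+/+ replicate 5 it was 0.14. With the counts of *Krt8-ps* given to *Krt8*, an alternative chosen after the values were seen, the median ratios were 8.24 in PyMT *Pcbp1*–/– and 19.3 in PyMT *Pcbp1*+/+. The mean log2 difference was then -0.38, and the genotypes again overlapped. The levels of the ratio and of the basal share thus depend on this choice.

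**Figure D2:**
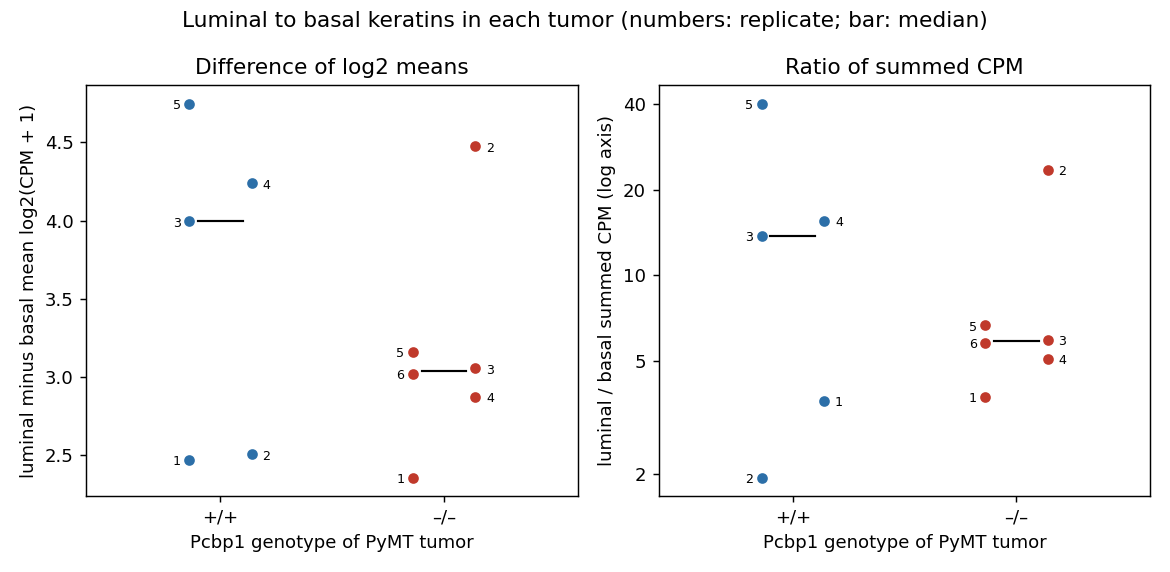
Luminal to basal balance of each tumor, as the difference of mean log2(CPM + 1) (left) and as the ratio of summed CPM on a log axis (right), with replicate numbers and a bar at each median. PyMT *Pcbp1*+/+ tumors (blue) span ratios from 1.95 to 40.1, and 5 of the 6 PyMT *Pcbp1*–/– tumors (red) lie between 3.74 and 6.68.

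Ratios of single keratins depended on which basal gene was used. The ratio of *Krt8* to *Krt5* CPM had a median of 2.84 in PyMT *Pcbp1*–/– tumors, between 2.18 and 14.3, and was 1.73, 26.3, 8.07, 10.2 and 60.5 in tumors 1 to 5 of PyMT *Pcbp1*+/+. The ratio of *Krt18* to *Krt14* CPM had a median of 11.9 in PyMT *Pcbp1*–/– tumors, between 7.84 and 40.5, and was 4.97, 0.637, 14.4, 9.94 and 36.3 in tumors 1 to 5 of PyMT *Pcbp1*+/+. PyMT *Pcbp1*+/+ replicate 2 was therefore strongly luminal by the first ratio and the most basal tumor by the second.

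Within the filament pairs, *Krt8* and *Krt18* kept an almost fixed ratio. The ratio of their CPM lay between 1.07 and 1.35 over the 11 tumors, and per length it lay between 0.789 and 0.990. The ratio of *Krt5* to *Krt14* CPM was 4.75, 3.04, 5.13, 5.85, 2.86 and 12.1 in tumors 1 to 6 of PyMT *Pcbp1*–/–. It was 3.88, 0.0326, 2.37, 1.21 and 0.673 in tumors 1 to 5 of PyMT *Pcbp1*+/+. The basal partners thus shifted 371-fold against each other, mostly through PyMT *Pcbp1*+/+ replicate 2, and 4 of the 5 PyMT *Pcbp1*+/+ ratios lay below all of PyMT *Pcbp1*–/–. Summed over the 8 keratins per length, type II RNA amounted to between 0.367 and 0.903 of type I RNA. With the counts of *Krt8-ps* given to *Krt8*, this ratio of type II to type I RNA was between 0.721 and 1.53 and above 1 in 9 of 11 tumors, so these data do not settle which type is more abundant.

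Correlations over the 11 tumors were computed on log2(CPM + 1) for 6 keratin pairs, with two-sided permutation tests of 100000 resamples and Benjamini-Hochberg adjustment over 6 pairs and 2 measures. *Krt8* and *Krt18* had r = 0.951 (p = 1e-05, the smallest these permutations give, adjusted p = 0.000120) and rho = 0.945 (p = 4e-05, adjusted p = 0.000240). Without the 2 tumors farthest from the median of *Krt8*, r was 0.887, and it was 0.950 after the genotype means were subtracted. *Krt5* and *Krt15* had r = 0.709 (permutation p = 0.0150, adjusted p = 0.0451) and rho = 0.800 (permutation p = 0.00456, adjusted p = 0.0182), with r = 0.847 without the 2 tumors farthest from the median of *Krt5* and 0.694 after the genotype means were subtracted. These were the pairs of the 6 tested that passed the adjustment, and the r of *Krt5* and *Krt15* no longer passed with TMM-scaled values (r = 0.703). Other pairs, picked after the values were seen and not tested, had a higher r than *Krt5* and *Krt15*: 0.847 for *Krt14* and *Krt17*, 0.812 for *Krt7* and *Krt8*, 0.764 for *Krt7* and *Krt18* and 0.755 for *Krt7* and *Krt17*.

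*Krt5* and its usual partner *Krt14* had r = 0.0996 (permutation p = 0.776, adjusted p = 0.776) and rho = 0.236 (permutation p = 0.486, adjusted p = 0.530). The 2 tumors farthest from the median of *Krt5* were PyMT *Pcbp1*+/+ replicates 2 and 5, and without them r was 0.666. With only PyMT *Pcbp1*+/+ replicate 2 left out, an alternative chosen after the values were seen, r was 0.738 and rho was 0.539, given as descriptions since the tumor left out is the one that departs most. Without PyMT *Pcbp1*–/– replicate 2 and PyMT *Pcbp1*+/+ replicate 5 as well, the low tumors for *Krt5*, r was 0.400, so the value rests on those 2 tumors to a large extent. After the genotype means were subtracted, r was 0.321 in all 11 tumors and 0.875 without PyMT *Pcbp1*+/+ replicate 2. Within the 6 PyMT *Pcbp1*–/– tumors r was 0.732. Both of these higher values include the low PyMT *Pcbp1*–/– replicate 2 and are descriptions as well.

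*Krt5* and *Krt17* had r = 0.405 (permutation p = 0.217, adjusted p = 0.352) and rho = 0.418 (permutation p = 0.203, adjusted p = 0.352), with r = 0.809 without the 2 tumors farthest from the median, PyMT *Pcbp1*+/+ replicates 2 and 5, and 0.450 after the genotype means were subtracted. *Krt7* and *Krt19* had r = 0.336 (permutation p = 0.304, adjusted p = 0.405) and rho = 0.282 (permutation p = 0.398, adjusted p = 0.478), with r = -0.03 without PyMT *Pcbp1*–/– replicate 2 and PyMT *Pcbp1*+/+ replicate 1, and 0.270 after the genotype means were subtracted. The type II keratins of both layers, *Krt8* and *Krt5*, had r = 0.446 (permutation p = 0.168, adjusted p = 0.352) and rho = 0.391 (permutation p = 0.235, adjusted p = 0.352), with r = 0.186 without PyMT *Pcbp1*–/– replicate 5 and PyMT *Pcbp1*+/+ replicate 1, and 0.596 after the genotype means were subtracted. Luminal and basal keratins did not show an inverse relation in these tumors.

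**Figure D3:**
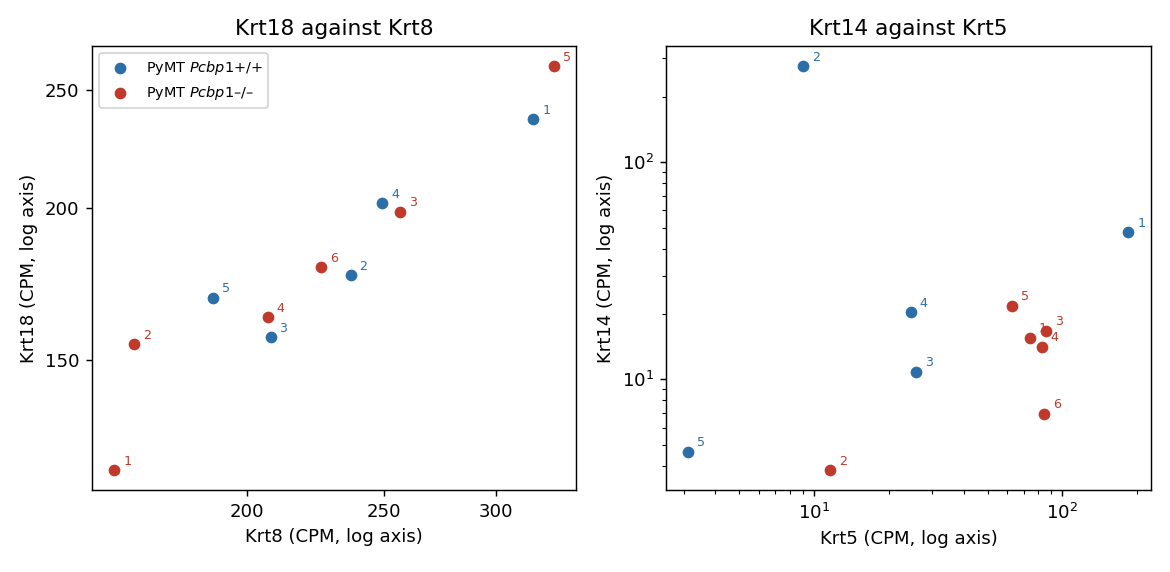
CPM of *Krt18* against *Krt8* (left) and of *Krt14* against *Krt5* (right) on log axes, 1 point per tumor with its replicate number, blue for PyMT *Pcbp1*+/+ and red for PyMT *Pcbp1*–/–. *Krt8* and *Krt18* follow one line (r = 0.951), whereas PyMT *Pcbp1*+/+ replicate 2 combines 277 CPM of *Krt14* with 9.01 CPM of *Krt5*.

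Keratin transcripts share sequence, which limits how reads can be assigned to one gene. Of the 50-base windows of the canonical *Krt8* transcript, 26.9% also occurred in *Krt8-ps* (ENSMUSG00000109325.1), a processed pseudogene at chr7:23357125-23358069 of GRCm38. *Krt8-ps* had between 173 and 389 CPM and exceeded *Krt8* in each tumor, by a ratio between 1.07 and 1.22, so the division of counts between them is uncertain. With both summed, an alternative chosen after the values were seen, the *Krt8* result had the same sign and did not pass the test. Of the *Krt14* windows 13.4% occurred elsewhere, 10.7% in *Krt16* and 3.12% in *Krt17*, and of the *Krt5* windows 8.47% did, 6.94% in *Krt6a*. The share was 3.69% for *Krt17*, 0.720% for *Krt18*, 0.666% for *Krt15*, 0.494% for *Krt7* and 0 for *Krt19*.

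Sequence before 3 of the keratin genes could be read. The promoter table of RefSeq (GRCm38.p6) held 5 of the 8 keratins, *Krt5*, *Krt7*, *Krt8*, *Krt14* and *Krt18*. For 3 of them it covered the 60 bases before the more upstream of its own start and the start in the deposited tables, shown 5′ to 3′ on the strand of the gene. Capitals mark ATAAA or TATAA, letters of the kind found in TATA boxes, which were searched on both strands and can overlap.
*Krt8*, chr15:102004483-102004542, minus strand: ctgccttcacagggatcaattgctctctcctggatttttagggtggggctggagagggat
*Krt18*, chr15:102028120-102028179, plus strand: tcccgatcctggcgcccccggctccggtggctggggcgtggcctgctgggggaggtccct
*Krt5*, chr15:101712906-101712965, minus strand: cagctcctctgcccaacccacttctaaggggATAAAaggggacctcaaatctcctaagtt
ATAAA was present in the window of *Krt5* and not in those of *Krt8* and *Krt18*, and TATAA was in none of the 3. Over the 10474 genes with such a window, 5.79% held ATAAA and 4.17% held TATAA. The window of *Krt5* adjoins the RefSeq start, whereas 140 bases lie between window and RefSeq start for *Krt8* and 36 for *Krt18*, so for these the letters before the RefSeq start are not shown. A match is a description of the letters only.

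Besides the 8, the tables held 20 genes whose symbol is Krt and a number, *Krt8-ps* included, of which 10 passed the filter on low counts and 0 were called by edgeR. Of the 9 protein-coding ones that passed, 0 were called by DESeq2, 1, *Krt4*, by limma-voom, and 3 had an unadjusted p under 0.05, beside 6.32%, 11.2% and 18.7% of all genes. *Krt4* reached the level of the filter in 1 PyMT *Pcbp1*–/– and 4 PyMT *Pcbp1*+/+ tumors and *Krt71*, one of the 3, in 4 and 1, so both were kept mainly through the genotype in which they are high. The median log2 fold change of the 9 was -0.04, beside -0.00 over all genes tested. *Krt23*, a type I keratin of simple epithelia, had medians of 17.4 CPM in PyMT *Pcbp1*–/– and 17.3 CPM in PyMT *Pcbp1*+/+ tumors. *Krt6a*, a type II keratin that pairs with *Krt17* in stressed epithelia, ranged from 0.342 to 13.9 CPM in PyMT *Pcbp1*–/– and from 0.659 to 20.9 CPM in PyMT *Pcbp1*+/+ tumors, highest in PyMT *Pcbp1*+/+ replicate 1. *Krt80* had 5.39 ± 3.17 CPM (n = 6, SD) and 6.84 ± 1.66 CPM (n = 5, SD).

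*Krt79*, a keratin of the hair follicle canal and sebaceous duct, ranged from 2.17 to 4.63 CPM in PyMT *Pcbp1*–/– tumors and had 1.64, 76.1, 5.96, 2.10 and 11.9 CPM in tumors 1 to 5 of PyMT *Pcbp1*+/+. As for *Krt14* and *Krt17*, the highest tumor was PyMT *Pcbp1*+/+ replicate 2. The log2 fold change of *Krt79* was -2.45 (SE 0.83, edgeR adjusted p = 0.142), and it was -0.65 (edgeR adjusted p = 0.493) without that tumor.

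Genes that anchor keratin filaments to desmosomes and hemidesmosomes were listed as well, and all 21 passed the filter. One of the 21 was higher in PyMT *Pcbp1*–/– tumors, beside 0.608% of all genes, and 0 were lower, beside 1.66% (edgeR), with a median log2 fold change of 0.16 beside -0.00 over all genes tested. DESeq2 called 6 of the 21, *Dsc2*, *Dsc3*, *Dsg3*, *Jup*, *Perp* and *Pkp1*, limma-voom called 3, *Jup*, *Perp* and *Pkp1*, and 8 had an unadjusted p under 0.05 in edgeR, beside 6.32%, 11.2% and 18.7% of all genes. The limma-voom count is near that background, and the DESeq2 count includes *Dsg3* and *Dsc3*, which reached the level of the filter mainly in PyMT *Pcbp1*–/– tumors and are not support for a change of the list. The other genes that DESeq2 called, *Dsc2*, *Jup*, *Perp* and *Pkp1*, had at least 18.3 CPM in each tumor. Their log2 fold changes in edgeR were 0.74, 0.26, 0.43 and 1.09. Of the 21 genes, 14 had a positive and 7 a negative log2 fold change.

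The gene called was *Dsg3*, a desmosomal cadherin of basal and stratified epithelium. It had 7.69, 1.87, 3.02, 0.731, 6.39 and 4.56 CPM in tumors 1 to 6 of PyMT *Pcbp1*–/–, and 0.274, 0.379, 0.876, 0.0911 and 0.804 CPM in tumors 1 to 5 of PyMT *Pcbp1*+/+. All but 1 of the PyMT *Pcbp1*–/– tumors lay above each PyMT *Pcbp1*+/+ tumor. Its log2 fold change was 3.00 (SE 0.65, edgeR adjusted p = 0.0337). The call was lost with limma-voom (2.64, adjusted p = 0.102) and without PyMT *Pcbp1*–/– replicate 3 or PyMT *Pcbp1*+/+ replicate 1, 2, 3 or 4, with edgeR adjusted p from 0.0568 to 0.0891. *Dsg3* reached the level of the filter in 5 PyMT *Pcbp1*–/– tumors and 1 PyMT *Pcbp1*+/+ tumor and did not pass it without PyMT *Pcbp1*–/– replicate 1, 2, 5 or 6. It was thus kept through the genotype in which it is high.

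*Dsc3*, the desmocollin of basal cells, reached the level of the filter in 6 PyMT *Pcbp1*–/– and 2 PyMT *Pcbp1*+/+ tumors and had a log2 fold change of 2.53 (SE 0.67, edgeR adjusted p = 0.0715), and *Pkp1*, a plakophilin of stratified epithelium, 1.09 (edgeR adjusted p = 0.149). The most abundant of the list did not pass: *Plec*, the plectin linker of filaments, had 692 ± 73.8 CPM (n = 6, SD) in PyMT *Pcbp1*–/– and 740 ± 146 CPM (n = 5, SD) in PyMT *Pcbp1*+/+ tumors. *Itga6*, *Dst* and *Eppk1* had log2 fold changes of 0.11, -0.08 and -0.30. The part of basal cell content in these values was not tested.

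Of 8 listed intermediate filament genes outside the keratins, 0 were called by edgeR, 1 by DESeq2 (*Gfap*), 1 by limma-voom (*Lmnb1*) and 4 had an unadjusted p under 0.05, beside 2.27%, 6.32%, 11.2% and 18.7% of all genes, with a median log2 fold change of -0.28. *Vim*, the filament of mesenchymal cells and the most abundant, had 124 ± 45.5 CPM (n = 6, SD) in PyMT *Pcbp1*–/– and 158 ± 65.2 CPM (n = 5, SD) in PyMT *Pcbp1*+/+ tumors. *Lmna*, *Nes* and *Lmnb1* had log2 fold changes of -0.23, -0.03 and 0.49.

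Markers of both layers other than keratins were set beside the keratin values, and the counts called in these and the following lists stand against the same shares of all genes. Of 24 listed basal and myoepithelial markers 23 passed the filter and 0 were called by edgeR, with a median log2 fold change of 0.17. DESeq2 called 0, limma-voom called 1 (*Lamb3*) and 2 had an unadjusted p under 0.05. The most abundant, *Sox10*, *Itga6*, *Lgr6* and *Mylk*, had log2 fold changes of 0.32, 0.11, -0.12 and 0.18, and *Wnt10a* did not pass the filter. The summed level of the list, led by *Sox10*, had a lowest value of 1426, a median of 1758 and a highest value of 2119 CPM in PyMT *Pcbp1*–/– tumors, and was 2714, 967, 1448, 1667 and 1276 CPM in tumors 1 to 5 of PyMT *Pcbp1*+/+.

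Replicate 1 of PyMT *Pcbp1*+/+, the highest tumor for *Krt5*, was thus the highest for this list, and held the highest value for 12 of the 23 genes. Replicate 2 of PyMT *Pcbp1*+/+, the highest for *Krt14* and *Krt17*, was the lowest for the list and for 9 of its 23 genes. In that tumor *Acta2*, the smooth muscle actin of myoepithelial cells, had 13.4 CPM and *Mylk*, myosin light chain kinase, had 27.5 CPM, the lowest of the 11 tumors, where the other 10 had 17.2 to 176 and 43.3 to 330 CPM. *Acta2* and *Trp63* were picked after the values were seen. *Trp63*, the basal transcription factor, had 18.5 CPM there and 9.29 to 61.3 CPM over all tumors. In the other low tumors for *Krt5*, PyMT *Pcbp1*–/– replicate 2 and PyMT *Pcbp1*+/+ replicate 5, *Acta2* had 24.8 and 17.2 CPM.

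Of 22 listed luminal markers other than keratins 21 passed the filter and 0 were called by edgeR, with a median log2 fold change of -0.10. DESeq2 and limma-voom each called 1, *Muc1*, and 3 had an unadjusted p under 0.05. *Tnfsf11* did not pass the filter. The summed level of the list, led by *Ehf*, ranged from 1949 to 3327 CPM in PyMT *Pcbp1*–/– tumors and was 3794, 2451, 2802, 3475 and 3189 CPM in tumors 1 to 5 of PyMT *Pcbp1*+/+. *Cdh1*, E-cadherin, had 311 ± 50.8 CPM (n = 6, SD) and 334 ± 55.2 CPM (n = 5, SD), so epithelial RNA was plentiful in both genotypes. *Ehf*, *Kit* and *Prlr* had log2 fold changes of -0.03, -0.50 and -0.00.

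Skin and its appendages express basal keratins too, and lie next to the mammary gland. Of 23 listed epidermal markers 16 were in the tables and 9 passed the filter, with 0 called by edgeR, 1 each by DESeq2 and limma-voom (*Calml3*) and a median log2 fold change of 0.16. The defining genes *Krt1*, *Lor* and *Ivl* did not pass, and no epidermal gene left out by the filter exceeded 1.39 CPM in any tumor. The summed list, led by *Calml3*, ranged from 57.5 to 112 CPM in PyMT *Pcbp1*–/– and from 57.8 to 70.2 CPM in PyMT *Pcbp1*+/+ tumors. *Calml3* had 45.6 ± 12.6 CPM (n = 6, SD) and 25.6 ± 3.05 CPM (n = 5, SD), a log2 fold change of 0.83 (SE 0.21, edgeR adjusted p = 0.0651), and *Asprv1*, *Sbsn* and *Lgals7* had log2 fold changes of 0.16, 0.31 and 0.69. Of 21 hair follicle and sebaceous markers 7 were in the tables and 5 passed, with 0 called by edgeR, 1 each by DESeq2 and limma-voom (*Tchh*), 3 at an unadjusted p under 0.05 and a median of -0.12. Of these 3, *Tchh* reached the level of the filter in 1 PyMT *Pcbp1*–/– and 4 PyMT *Pcbp1*+/+ tumors and *Krt71* in 4 and 1, again mainly where they are high.

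The hair follicle and sebaceous list, led by *Mgst1*, summed to between 72.9 and 120 CPM in PyMT *Pcbp1*–/– tumors and to 105, 151, 89.5, 101 and 111 CPM in tumors 1 to 5 of PyMT *Pcbp1*+/+. It was highest in PyMT *Pcbp1*+/+ replicate 2, through *Krt79* and *Tchh*, a protein of hair follicle root sheath, which had 12.1 CPM there and at most 2.92 CPM elsewhere. The other 3 genes of the list that passed went the other way there: *Mgst1* with 59.9 CPM and *Krt71* with 0.0948 CPM were the lowest of the 11 tumors, and *Scd3* with 1.99 CPM was the second lowest. The part of such cells in the *Krt14* value of this tumor was not tested. *Mgst1* and *Scd3* had log2 fold changes of -0.12 and 0.27.

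Markers of other cells of the tumor were counted in the same way. Of 10 genes each, edgeR called 0 for smooth muscle and pericytes, fibroblasts and endothelial cells, and so did DESeq2 and limma-voom, with 0 at an unadjusted p under 0.05 and medians of 0.04, 0.24 and -0.22. Log2 fold changes of the most abundant were -0.09, 0.10, 0.03 and -0.19 for *Notch3*, *Rgs5*, *Mcam* and *Cspg4*, 0.18, 0.35, 0.35 and -0.03 for *Col1a1*, *Col3a1*, *Col1a2* and *Postn*, and -0.24, -0.15, -0.35 and -0.40 for *Cdh5*, *Pecam1*, *Kdr* and *Egfl7*. Their summed levels ranged from 213 to 365, from 479 to 1141 and from 58.3 to 109 CPM over the tumors. Among 10 macrophage markers *Cd14* was lower in PyMT *Pcbp1*–/– tumors, with a log2 fold change of -1.19 (SE 0.28, edgeR adjusted p = 0.0481), a call lost with 8 of the 11 tumors left out in turn, with limma-voom, both limma fits of log2 CPM and the replicate block, without the filter and with scaling to library size only, and *C1qa*, *C1qb* and *C1qc* had 0.19, 0.16 and 0.19. Of 10 T and NK cell markers 4 passed the filter, of 8 B and plasma cell markers 0, of 10 adipocyte markers 9 and of 10 skeletal muscle markers 1, with 0 called by edgeR or DESeq2, 1 adipocyte gene (*Plin4*) called by limma-voom and 0 at an unadjusted p under 0.05. Log2 fold changes were -0.21, -0.08, -0.12 and 0.16 for *Cd8a*, *Lck*, *Cd4* and *Cd3e*, -0.80, -0.33, -1.32 and -0.82 for *Plin4*, *Lipe*, *Cfd* and *Fabp4*, and 0.55 for *Acta1*. The adipocyte genes had a median of -0.80, and their summed level was highest in PyMT *Pcbp1*+/+ replicate 3 at 167 CPM.

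All 10 markers of dividing cells had a positive log2 fold change, with a median of 0.45 and 0 called by edgeR. DESeq2 called 4, limma-voom 7 and 6 had an unadjusted p under 0.05, beside 6.32%, 11.2% and 18.7% of all genes. *Mki67*, the most abundant, had 449 ± 67.5 CPM (n = 6, SD) in PyMT *Pcbp1*–/– and 320 ± 52.9 CPM (n = 5, SD) in PyMT *Pcbp1*+/+ tumors, and *Cenpf*, *Top2a* and *Aurkb* had log2 fold changes of 0.51, 0.42 and 0.07. The summed level of the list was lowest, at 360 CPM, in PyMT *Pcbp1*+/+ replicate 1, the tumor with the most *Krt5*, *Krt8* being second highest there.

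Among 10861 protein-coding genes outside the keratins with a mean of at least 5 CPM, those most like the mean log2(CPM + 1) of the 4 basal keratins over the 11 tumors were *Abhd8* (r = 0.934), *Gdi2* (r = 0.919), *Adcy3* (r = 0.915), *Nav2* (r = 0.914) and RP23-300H4.1 (r = 0.913). Those most like the mean of the 4 luminal keratins were *Ggact* (r = 0.918), *Ampd3* (r = 0.894), *Cdk18* (r = 0.893), *Cdk19* (r = 0.887) and *Fbxo38* (r = 0.866). These values are descriptions, the highest of many genes over few tumors, and none of these 10 genes was called between the genotypes, with edgeR adjusted p from 0.348 to 0.989. *Nav2* had 67.6 CPM in PyMT *Pcbp1*+/+ replicate 5 and 200 CPM in PyMT *Pcbp1*+/+ replicate 1, following the basal keratins.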

How the data were processed

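RNA of 11 tumors was extracted with Trizol, sequenced as paired-end reads checked with FastQC and aligned to GRCm38 with Bowtie2. The paper names Partek Flow for its differential expression step. The gene annotation version and the counting method are not given in the sources used here. The authors deposited estimated counts, which are not whole in 17.9% to 19.6% of values, and CPM, each count scaled to the column sum within 0.772%. Deposited stop positions lie 1 past the end, so ends were taken 1 base earlier.

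The rounded counts went into edgeR 4.0.16 in R 4.3.3 (TMM factors, default filter, quasi-likelihood test on genotype, Benjamini-Hochberg adjustment over 19232 genes, call at 0.05). Standard errors were derived from the F statistic. The code was tested on simulated data. Alternatives were DESeq2 1.42.0, limma 3.58.1 (voom with quality weights, log2(CPM + 1), log2(CPM + 0.1)), other scalings and filters, protein-coding genes only, a replicate block and each tumor left out. Correlations used scipy 1.17.1. The members and lists were chosen with earlier results of these data known. Named genes were the members, called genes and the 4 most abundant of each list, the 5 most abundant other keratins and the 5 genes most like each keratin mean. Others, such as *Acta2*, *Trp63*, *Dsc3*, *Pkp1* and genes called by 1 tool, were added after the values were seen.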

Additional observations from a re-analysis of the deposited data

Results flagged for a closer look

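The 8 keratins and the 2 luminal to basal measures gave 20 groups of tumors, and 6 had a tumor flagged as far from the rest. In these 6 the gap to the nearest tumor was 0.652 to 0.875 of the range of the group. The gaps were taken on CPM or on the ratio, not on log values, and genes that range widely leave large gaps more readily. About 1 flag in 20 groups by chance assumes values without such skew, so the count of 6 is a description only. All concern basal keratins, which share tumors, so the 6 are not independent. In PyMT *Pcbp1*+/+, *Krt5* was 184 CPM in replicate 1, where the next tumor had 25.8 CPM, and *Krt15* was 11.1 CPM in the same tumor, where the next had 3.22 CPM. *Krt14* was 277 CPM in PyMT *Pcbp1*+/+ replicate 2, where the next had 47.6 CPM. In PyMT *Pcbp1*–/–, *Krt5* was 11.6 CPM in replicate 2, where the next had 62.5 CPM, and the summed luminal to basal ratio of that tumor was 23.5, where the next was 6.68. *Krt15* was 17.7 CPM in PyMT *Pcbp1*–/– replicate 6, where the next had 6.41 CPM. What sets these tumors apart was not tested.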

How the results depend on the processing

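The 8 keratins were recomputed under 169 alternatives in all, and 0 passed the threshold, with adjusted p from 0.0861 to 1.00 where a tool gave one (DESeq2 gave none for *Krt5*). The sign of the log2 fold change turned in 8 of the 169. For *Krt17* it became 0.73 with limma-voom, 0.00706 with limma on log2(CPM + 0.1) and 0.27 with the replicate block, and leaving out a tumor gave -0.74 to 0.65. Leaving out a tumor gave -0.23 to 0.00754 for *Krt8*, -0.20 to 0.0414 for *Krt18* and -0.0157 to 1.85 for *Krt15*. *Krt5*, *Krt7*, *Krt14* and *Krt19* kept their sign. The genotype difference in the luminal to basal log2 balance lay between -0.89 (without *Krt14*) and -0.03 (without *Krt5*), always within 1 SD of the main value. With *Krt8-ps* counts added to *Krt8*, chosen after seeing the data, the median ratio per length of *Krt8* to *Krt18* turned from 0.933 to 2.01 and that of type II to type I from 0.654 to 1.15.

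The *Krt5* and *Krt15* correlation had r = 0.703 with TMM-scaled values and narrowly missed the threshold. Without PyMT *Pcbp1*+/+ replicate 2, an alternative chosen after seeing the data, r became 0.738 for *Krt5* and *Krt14* (rho 0.539) and 0.806 for *Krt5* and *Krt17*. The tumor left out is the discordant one, so these are descriptions, and without PyMT *Pcbp1*–/– replicate 2 and PyMT *Pcbp1*+/+ replicate 5 as well, r was 0.400 and 0.660.

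Of all genes, 319 were lower and 117 higher in PyMT *Pcbp1*–/– with edgeR, 730 and 486 with DESeq2, 1190 and 968 with limma-voom, and 118 and 42 with the replicate block. Leaving out a tumor gave 144 to 389 lower and 41 to 187 higher. Counts moved by more than 1.5-fold without PyMT *Pcbp1*–/– replicate 3, 4, 5 or 6 or PyMT *Pcbp1*+/+ replicate 1, 3 or 4, and the higher count also without PyMT *Pcbp1*+/+ replicate 2. The causes were not tested. Replicate numbers gave no clear pairing of the tumors: deviations of same-numbered tumors correlated at -0.17 to 0.32. PyMT *Pcbp1*–/– replicates 1 and 5 correlated best with the PyMT *Pcbp1*+/+ tumor of their own number, and replicates 2, 3 and 4 did not. These 5 correlations are too few to decide whether the numbers pair the tumors. Depth limits *Krt15* and *Dsg3*, which had few counts in some tumors.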

Other observations

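PyMT *Pcbp1*+/+ replicate 2 had other genes far above the rest. By a rule chosen after the values were seen, protein-coding genes with at least 20 CPM in this tumor were ordered by their value over the next highest tumor. *Sp6*, a transcription factor of skin appendages and teeth, led with 22.9 CPM against 1.92 CPM. *Krt79* had 76.1 against 11.9 CPM, *Cyp1b1*, a cytochrome P450 induced by the aryl hydrocarbon receptor, 130 against 21.0 CPM, and *Krt14* was the next with 277 against 47.6 CPM. *Robo2*, *Sec14l5*, *Slc16a11* and *Pgf* followed at 5.33, 5.33, 5.17 and 4.37 times the next tumor. Below that level, 5 of the 10 keratins left out by the filter were also highest in this tumor, among them *Krt42* with 4.46 CPM and *Krt16*, which shares sequence with *Krt14*, with 1.99 CPM.

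The genes most like single keratins differed between *Krt5* and *Krt14*, in an ordering also chosen after the values were seen. Over the 11 tumors *Bmp7*, a bone morphogenetic protein, had r = 0.970 with *Krt5*, and *Jag2*, a Notch ligand of basal cells, had r = 0.964. *Bmp7* had 21.5 CPM in PyMT *Pcbp1*+/+ replicate 1 and 3.89 CPM in replicate 2. *Scube3* had r = 0.966 with *Krt14*, with 35.4 CPM in PyMT *Pcbp1*+/+ replicate 2 and between 5.10 and 15.1 CPM in the other 10 tumors. *Ets2* had r = 0.935 with *Krt18*, and *Mef2c* had r = 0.901 with *Krt19*. These are the highest of 10861 values each and carry no test.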
